A study of Homo sapiens with 4 samples.

Results

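The genes described here are the 8 whose products make up or closely relate to the TAL1 transcription factor complex. They are TAL1, LYL1, LMO2, LMO4, LDB1, TCF3, TCF12 and CBFA2T3. GATA2 peaks were taken as theirs when they overlapped the gene body (GENCODE release 44, hg38) extended by 75 kb on each side. By this rule 57 of the 31777 peaks of asynchronous cells and 6 of the 1648 peaks of mitotic cells belonged to them. No peak fell in the windows of more than 1 of these genes.

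GATA2 was measured by ChIP-seq in K562, an established chronic myeloid leukaemia cell line that grows in suspension. There was 1 GATA2 library from asynchronous K562 cells and 1 from K562 cells arrested in mitosis with nocodazole, both fixed with disuccinimidyl glutarate and then formaldehyde. The mitotic cells were also stained for MPM-2, sorted in several rounds, in which a minor share of asynchronous cells remained, and pooled before the ChIP with the same GATA2 antibody. Neither condition had a replicate, so no test between them was possible and every difference between the lists is that of 2 libraries.

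TAL1 is a basic helix-loop-helix (bHLH) factor without which no blood cells form. It binds E-box DNA as a dimer with an E protein, here TCF3 or TCF12, and LYL1 is its closest relative. LMO2 is a LIM-only protein that bridges the TAL1 dimer to a GATA factor, LDB1 binds LMO2 and by its own dimerisation can hold enhancers and promoters together, LMO4 is a relative of LMO2, and CBFA2T3 (ETO2) is a corepressor carried by the complex. In erythroid and stem cells this assembly sits on composite sites where part of an E-box lies about a helical turn from a GATA sequence. A GATA2 peak at these genes is therefore binding near the genes of partners of GATA2 itself.

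An asynchronous peak was called bookmarked if it shared at least 1 base with a mitotic peak. Of the 57 asynchronous peaks of these genes, 6 were bookmarked, which is 10.5% (95% exact binomial interval 3.96% to 21.5%), beside 5.04% of all asynchronous peaks. The intervals cover counting error only, and peaks of 1 gene are not replicates. The part that read depth or the remaining asynchronous cells had in the mitotic list was not tested. The 6 bookmarked peaks lay at TAL1 (1), LYL1 (2), LMO2 (1) and CBFA2T3 (2), and each overlapped 1 mitotic peak. With windows of 25 kb in place of 75 kb, 37 asynchronous and 2 mitotic peaks were counted at the 8 genes, and the bookmarked share was 5.41%. LMO4, LDB1, TCF3 and TCF12 had 26 asynchronous peaks in all and no mitotic peak. So 4 of 8 genes had a mitotic peak in their window, beside 15.2% of 20033 protein-coding genes with windows built in the same way. Windows with at least 2 mitotic peaks were those of LYL1 and CBFA2T3, 2 of 8, beside 2.54% of all. An asynchronous peak was found in 8 of 8 windows, beside 82.3% of all. All 8 held at least 4 asynchronous peaks, and among the gene windows for which that is true, 29.2% held a mitotic peak. The share of those windows with at least 2 mitotic peaks is not given here, and the 2.54% includes windows without any asynchronous peak.

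The reference sequence (hg38, plus strand) is given for 5 of the 6 mitotic peaks, as the DNA under the intervals called in mitotic cells. Each stretch below is the 300 bases of the mitotic peak with most motifs. Capitals mark GATA matches (GATA preceded by A or T and followed by A or G, on either strand), the E-boxes CAGCTG and CAGATG on either strand, and the CTG of a GATA:E-box composite. In the LYL1 promoter peak both GATA matches lie in an annotated exon, and only the 20 bases around each are given.
TAL1, downstream peak, chr1:47181301-47181600: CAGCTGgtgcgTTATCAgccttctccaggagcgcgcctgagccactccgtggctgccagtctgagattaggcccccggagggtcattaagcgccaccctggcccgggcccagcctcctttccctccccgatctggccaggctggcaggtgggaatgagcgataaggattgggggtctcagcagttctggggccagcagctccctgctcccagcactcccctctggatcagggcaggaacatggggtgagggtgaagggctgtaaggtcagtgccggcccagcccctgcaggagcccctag
LYL1, promoter peak, first GATA match, chr19:13102844-13102863: ccagtgcAGATAAgggccag
LYL1, promoter peak, second GATA match, chr19:13102873-13102892: ccgcgccTGATAAggagcct
LMO2, upstream peak, chr11:33944826-33945125: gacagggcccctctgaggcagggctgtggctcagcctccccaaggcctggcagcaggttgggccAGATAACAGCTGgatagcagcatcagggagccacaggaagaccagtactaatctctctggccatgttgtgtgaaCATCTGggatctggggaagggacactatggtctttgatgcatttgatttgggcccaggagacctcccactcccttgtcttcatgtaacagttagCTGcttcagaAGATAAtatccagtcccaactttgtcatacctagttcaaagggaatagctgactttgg
CBFA2T3, nearer upstream peak, chr16:88992654-88992953: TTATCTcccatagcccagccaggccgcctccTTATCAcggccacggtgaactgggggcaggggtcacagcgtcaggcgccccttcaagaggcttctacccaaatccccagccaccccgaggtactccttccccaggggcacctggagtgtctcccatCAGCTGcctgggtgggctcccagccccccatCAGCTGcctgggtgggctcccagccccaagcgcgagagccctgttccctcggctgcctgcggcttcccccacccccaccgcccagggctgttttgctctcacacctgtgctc
CBFA2T3, farther upstream peak, chr16:89004098-89004397: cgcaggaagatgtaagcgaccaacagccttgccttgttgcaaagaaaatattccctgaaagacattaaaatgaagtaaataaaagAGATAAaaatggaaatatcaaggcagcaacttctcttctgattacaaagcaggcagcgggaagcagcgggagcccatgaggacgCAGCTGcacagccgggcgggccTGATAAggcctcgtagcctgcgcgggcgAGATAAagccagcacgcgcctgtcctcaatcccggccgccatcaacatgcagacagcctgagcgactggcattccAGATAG

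TAL1 (ENSG00000162367, minus strand of chromosome 1, 47216290 to 47232225) had 6 asynchronous peaks in its window. Relative to the start site of the canonical transcript, with upstream positions negative, the midpoints lay at -9672, -7030, -201, 2843, 18689 and 50737 bp. From the upstream to the downstream end their widths were 489, 810, 331, 248, 252 and 747 bp. The only mitotic peak was at the last of them. The downstream intergenic region of TAL1 is known to hold an erythroid enhancer of the gene. The bookmarked interval, from 47181115 to 47181861, lay 34429 bp past the 3′ end of TAL1, and the nearest protein-coding start site was that of PDZK1IP1 at 3483 bp. Its mitotic peak, from 47181183 to 47181920, was 738 bp wide, nearly as wide as the asynchronous peak, and wider than 98.8% of the mitotic list. In the sequence above, the single GATA match of the peak (TTATCA, on the minus strand) stands 5 bases from a CAGCTG, and a second CAGCTG lies elsewhere in the peak. The spacing and orientation are not those of the composite searched here.

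The peak at the promoter of TAL1 and the widest TAL1 peak were called in the asynchronous list only. The promoter peak, from 47232261 to 47232591, began 36 bp from the nearest annotated start site and held 1 GATA match. The peak at -7030 bp, from 47238850 to 47239659, was wider than 95.3% of the asynchronous list and held 3 GATA matches, 2 CAGCTG, 1 CAGATG, 1 RUNX string (AACCACA) and 1 ETS string (AGGAAGT). By width and motif number it exceeded the bookmarked downstream peak, which held 1 GATA match and 2 CAGCTG. These sequences are given to set them beside the bookmarked one, with capitals as above, the first for the part of the peak outside annotated transcripts.
TAL1, promoter peak, asynchronous only, chr1:47232336-47232591: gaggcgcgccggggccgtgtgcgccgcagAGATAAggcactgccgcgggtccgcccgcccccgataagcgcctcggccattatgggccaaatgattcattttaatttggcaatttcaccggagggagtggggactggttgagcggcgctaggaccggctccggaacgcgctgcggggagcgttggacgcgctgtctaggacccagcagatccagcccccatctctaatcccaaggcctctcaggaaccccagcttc
TAL1, upstream peak, asynchronous only, chr1:47239103-47239402: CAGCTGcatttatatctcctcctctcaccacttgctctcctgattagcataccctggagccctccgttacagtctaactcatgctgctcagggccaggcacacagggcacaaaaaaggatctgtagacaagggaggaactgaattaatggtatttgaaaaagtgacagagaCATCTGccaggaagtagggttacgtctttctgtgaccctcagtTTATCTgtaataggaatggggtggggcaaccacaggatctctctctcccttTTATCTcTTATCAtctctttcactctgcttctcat

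LYL1 (ENSG00000104903, minus strand of chromosome 19, 13099033 to 13103161) was the site of 5 asynchronous peaks, 2 of them bookmarked. Its window holds 5 other protein-coding genes (IER2, NACC1, NFIX, STX10 and TRMT1), and only 1 of the 5 peaks was nearest to a LYL1 start site. That peak, from 13102671 to 13103097, covered the LYL1 promoter, with its midpoint 26 bp upstream of the canonical start site. It was 427 bp wide, wider than 59.8% of the asynchronous list, which made it the narrowest of the 6 bookmarked peaks. The mitotic peak there, from 13102481 to 13102990, was 510 bp wide and was shifted by 148 bp in the direction of transcription. Both held the same pair of GATA matches, AGATAA from 13102851 to 13102856 and TGATAA from 13102880 to 13102885, and neither held one of the E-boxes. The mitotic interval also held 1 RUNX and 1 KLF string (CACACCC) that lay outside the asynchronous one. Of the 14 asynchronous peaks whose nearer edge was within 3 kb of an annotated start site of their own gene, this was the only bookmarked one. In the whole list, 4.33% of peaks with midpoints within 3 kb of any protein-coding start site were bookmarked. With so few peaks, a count of 1 is near that share.

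The other bookmarked peak in the LYL1 window was 660 bp wide and lay in intron 2 of the canonical transcript of NFIX, a gene for a nuclear factor I protein. It overlapped a start site of another NFIX transcript and lay 33164 bp downstream of the LYL1 start site. The lists do not show which gene such a peak serves. Its mitotic peak of 258 bp was the narrowest of the 6 and covered 39.1% of the asynchronous interval. All 3 GATA matches of the asynchronous peak were inside the mitotic interval. The remaining 3 peaks of the window, at 255, 311 and 346 bp, were narrower than the median of the list (378 bp) and were asynchronous only.

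LMO2 (ENSG00000135363, minus strand of chromosome 11, 33858576 to 33892076) had the most peaks of the 8 genes, 14, and is the only protein-coding gene in its window. At 7.63 peaks per 100 kb the window was denser than 99.4% of protein-coding gene windows, whose median was 1.41. The peaks fell into 2 groups. A set of 9 surrounded the canonical start site, from -7011 bp to 12861 bp in intron 2, with widths from 319 to 629 bp. None of these 9 was bookmarked. Of the 9 peaks, 5 were within 3 kb of a start site, and in the whole list 4.33% of peaks so placed were bookmarked. The other 5 lay between -45175 and -65765 bp, where distal enhancers of LMO2 are known to lie. From the nearest to the farthest their widths were 733, 180, 697, 180 and 448 bp, and only the third, from 33944599 to 33945295, was bookmarked. Its mitotic peak of 425 bp, from 33944764 to 33945188, covered 61.0% of the asynchronous interval.

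Within the mitotic interval of LMO2, printed above, AGATAA stands directly beside a CAGCTG, and AGATAA also forms a composite from 33945058 to 33945073 (CTGCTTCAGAAGATAA). Another GATA match of the asynchronous peak was outside the mitotic interval. The only other composite at LMO2 was in an asynchronous-only peak at -2486 bp, from 33894574 to 33894589 on the minus strand (CTGAGGCACAAGATAA), in a peak of 581 bp. A composite was therefore present in a bookmarked and in an unbookmarked LMO2 peak. The widest peak of the window, 733 bp at -45175 bp, held 4 GATA matches and 1 CAGCTG and was asynchronous only.
LMO2, peak upstream of the promoter, asynchronous only, chr11:33894412-33894711: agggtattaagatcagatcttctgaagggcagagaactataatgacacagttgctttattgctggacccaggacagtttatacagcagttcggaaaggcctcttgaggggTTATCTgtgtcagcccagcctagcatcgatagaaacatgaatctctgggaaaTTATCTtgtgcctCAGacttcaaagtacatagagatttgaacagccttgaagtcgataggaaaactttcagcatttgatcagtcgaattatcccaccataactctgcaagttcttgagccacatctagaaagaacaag

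**Figure D1:**
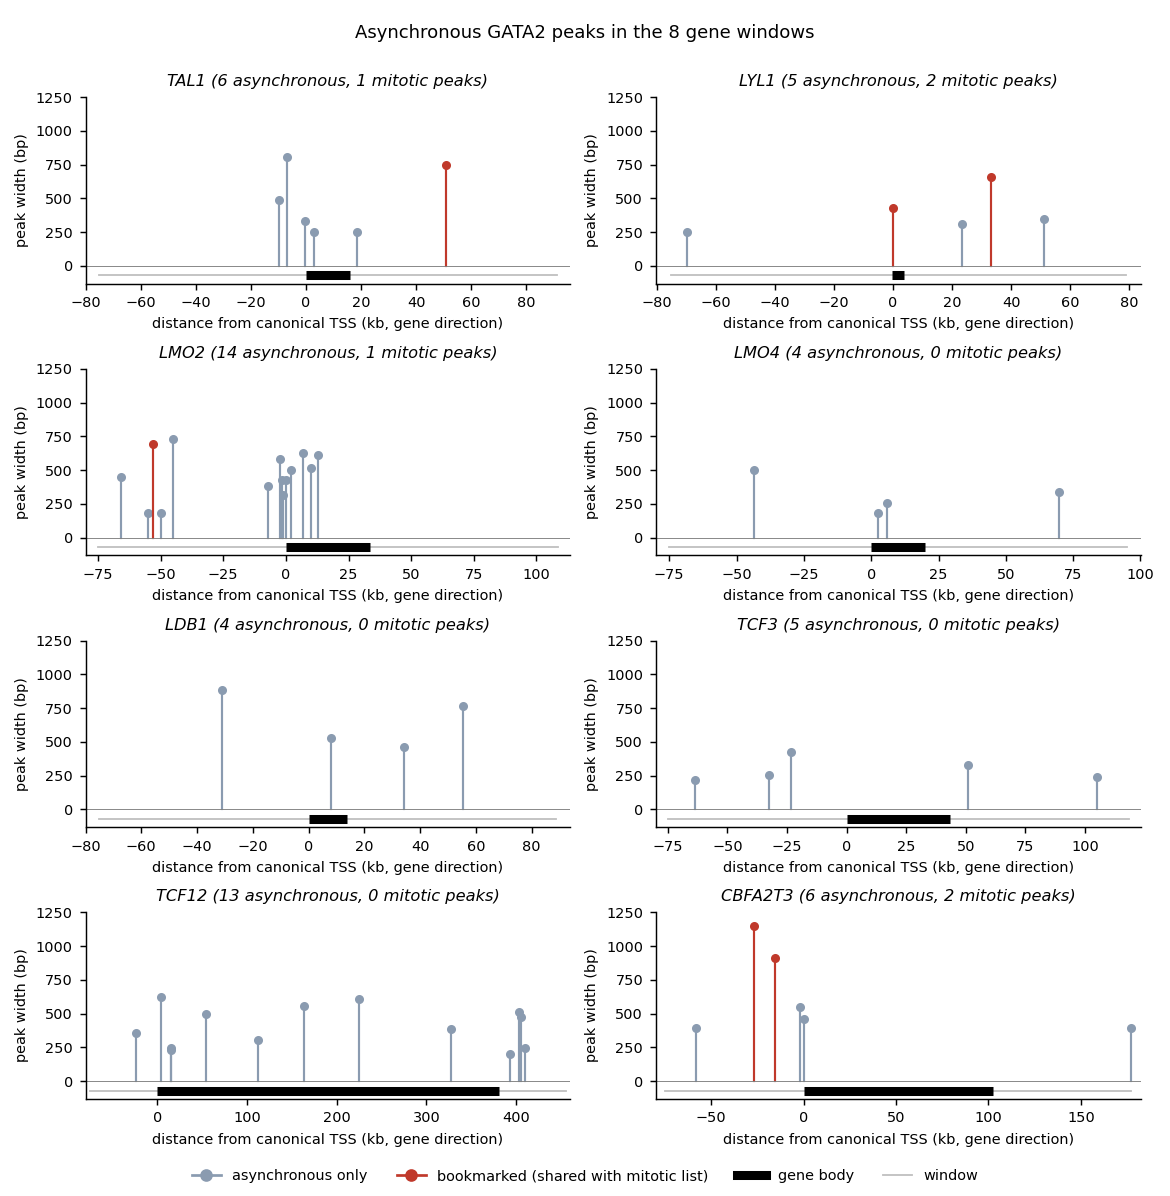
Each panel plots the asynchronous GATA2 peaks of 1 gene window as stems, with the distance of the peak midpoint from the canonical transcription start site (kb, in the direction of the gene) on the horizontal axis and the peak width (bp) as height. Red stems are the 6 bookmarked peaks, grey stems the asynchronous-only peaks, the black bar is the gene body and the thin line the window. Of the bookmarked peaks, 5 stand away from the promoter and 1 on the promoter of LYL1, and the LMO2 window shows its 9 peaks around the start site and 5 upstream.

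CBFA2T3 (ENSG00000129993, minus strand of chromosome 16, 88874858 to 88977207) had 6 asynchronous peaks, and the 2 widest were bookmarked. Both lay upstream of the gene in intergenic sequence and had a CBFA2T3 start site as the nearest protein-coding one. One, from 88992275 to 88993189, had a width of 915 bp and its midpoint at -15525 bp. The other, from 89003472 to 89004622, was 1151 bp wide, wider than 99.4% of the list, and lay at -26840 bp. Their mitotic peaks were 619 and 712 bp wide, covered 67.7% and 61.9% of the asynchronous intervals and were wider than 96.5% and 98.5% of the mitotic list. The farther peak held 7 GATA matches, of which 6 were inside the mitotic interval, while its 3 KLF strings were all outside. In the nearer peak the 2 GATA matches lay 120 bases or more from the closest CAGCTG or CAGATG. The peaks at the CBFA2T3 promoter, 459 bp wide at the start site and 545 bp wide at -1849 bp, were asynchronous only.

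LDB1 (ENSG00000198728, minus strand of chromosome 10, 102106489 to 102120368) had 4 asynchronous peaks of 883, 531, 462 and 764 bp and no mitotic peak. The first and the last were in the widest decile of the asynchronous list, from 681 bp, and are wider than the bookmarked TAL1 peak. Both lay at the promoters of neighbouring genes, 290 bp from a start site of NOLC1 and 116 bp from one of HPS6. The one peak in LDB1 itself, from 102112195 to 102112725 in intron 1 and 1062 bp from an LDB1 start site, held 3 GATA matches, 3 CAGATG and 1 KLF string. Its sequence is shown as a peak with several motifs and no mitotic peak.
LDB1, intron 1 peak, asynchronous only, chr10:102112310-102112609: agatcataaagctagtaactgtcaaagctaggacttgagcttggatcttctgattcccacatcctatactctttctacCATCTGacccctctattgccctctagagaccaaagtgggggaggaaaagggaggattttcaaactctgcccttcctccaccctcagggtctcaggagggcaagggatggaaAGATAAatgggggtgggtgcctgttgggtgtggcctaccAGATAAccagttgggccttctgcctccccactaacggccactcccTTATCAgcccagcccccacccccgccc

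The E protein genes had 18 asynchronous peaks between them and no mitotic peak, where 5.04% of all asynchronous peaks were bookmarked. With so few peaks, a count of none is near that share. TCF12 (ENSG00000140262, plus strand of chromosome 15, 56918623 to 57299281) had 13, of which 8 overlapped the gene body, 1 lay upstream and 4 lay past its 3′ end. Its count was above that of 97.4% of protein-coding gene windows, but the gene is 380659 bp long, and per 100 kb the 2.45 peaks exceeded 70.5% of windows. Widths at TCF12 ran from 198 to 619 bp with a median of 383 bp, and none of the peaks was in the widest decile of the list. All 13 TCF12 peaks held a GATA match, with 7 matches in the peak of intron 4. TCF3 (ENSG00000071564, minus strand of chromosome 19, 1609291 to 1652615) was the only one of the 8 genes with no peak over its gene body. Its 5 peaks were 214 to 427 bp wide, and only 2 were nearest to a TCF3 start site. LMO4 (ENSG00000143013, plus strand of chromosome 1, 87328880 to 87348923) had 4 peaks of 499, 180, 254 and 339 bp, and 2 of them lay in its introns 1 and 2.

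Widths were compared next, since width is the only measure of size in these lists. The median over the 57 peaks was 427 bp, with quartiles of 306 and 553 bp, beside 378 bp (267 and 518 bp) for the whole asynchronous list. The 6 bookmarked ones ran from 427 to 1151 bp with a median of 722 bp, and the 51 others from 180 to 883 bp with a median of 396 bp, so the ranges overlapped. In the widest decile of the list were 8 peaks of these genes, and 4 of them were bookmarked (exact interval 15.7% to 84.3%). Of all peaks of that width 24.6% were bookmarked, a share inside this interval. The 4 that were not lay at TAL1, LMO2 and LDB1 (2). Of the 27 peaks between the median and the widest decile 2 were bookmarked, beside 5.89% in the whole list, and of the 22 below the median none was (exact interval up to 15.4%), beside 0.398%. The 6 mitotic peaks had a median width of 564.5 bp, and 4 of them were above the 90th percentile of the mitotic list, whose median was 298 bp.

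**Figure D2:**
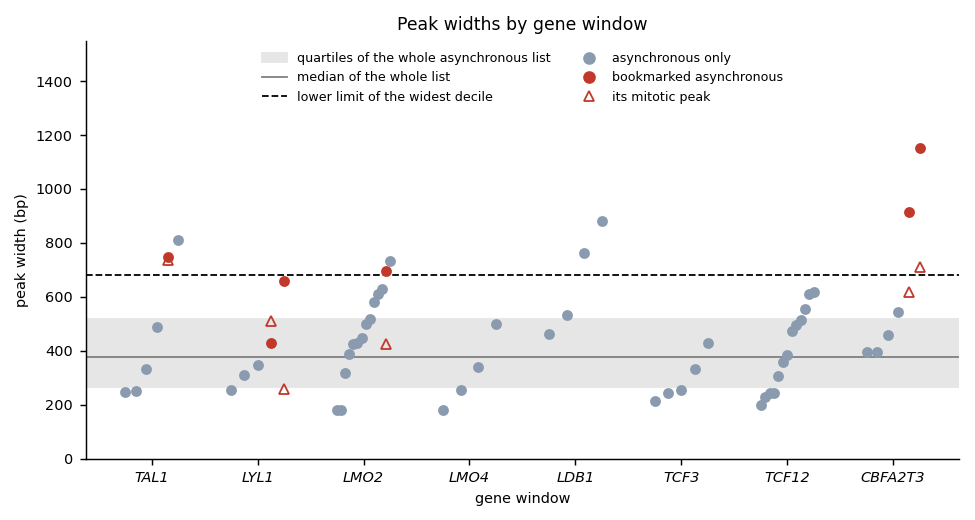
The width in bp of every asynchronous peak is plotted by gene window, with bookmarked peaks in red, asynchronous-only peaks in grey and the mitotic peaks as open triangles. The grey band and the solid line give the quartiles and the median of the whole asynchronous list, and the dashed line the lower limit of its widest decile (681 bp). The 6 bookmarked peaks lie between 427 and 1151 bp, and 4 asynchronous-only peaks are above the dashed line.

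Motifs were counted as strings on both strands in the reference sequence of each peak. A GATA match was found in 51 of the 57 peaks, or 89.5% (78.5% to 96.0%), beside 93.0% of the whole list. The 6 peaks without one were asynchronous only, at most 448 bp wide, and 3 of them were at LMO2. On average a peak of these genes held 2.23 GATA matches and a peak of the list 2.51. The E-box CAGCTG, to which bHLH dimers bind, was found in 21.1% (11.4% to 33.9%) beside 24.1%, and CAGATG in 31.6% (19.9% to 45.2%) beside 34.4%. The composite (CTG, 8 bases, GATAA) was found in 3 peaks, or 5.26% (1.10% to 14.6%), beside 8.55%. With 7 to 9 bases allowed between its parts the share was 21.1%, beside 23.4%. Among strings of other factors, KLF was found in 17.5% (8.75% to 29.9%) beside 8.75%, RUNX in 14.0% beside 13.6%, ETS in 10.5% beside 14.9% and AP-1 (TGACTCA) in 8.77% beside 13.0%. For all but KLF the share of the whole list lay inside the interval of the 57 peaks, and for KLF it was at the lower end of that interval. A string match is a description of the sequence and does not show that a factor was bound.

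Peaks differ in width, so the strings were also counted in 200 bp around the midpoint of each peak. In these equal lengths GATA was found in 78.9% of the 57 peaks and 84.9% of the list, the composite in 1.75% and 6.31%, CAGCTG in 7.02% and 14.8%, CAGATG in 21.1% and 21.7%, and KLF in 8.77% (2.91% to 19.3%) and 4.59%. All 5 of the whole-list shares lay inside the intervals of the 57 peaks.

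**Figure D3:**
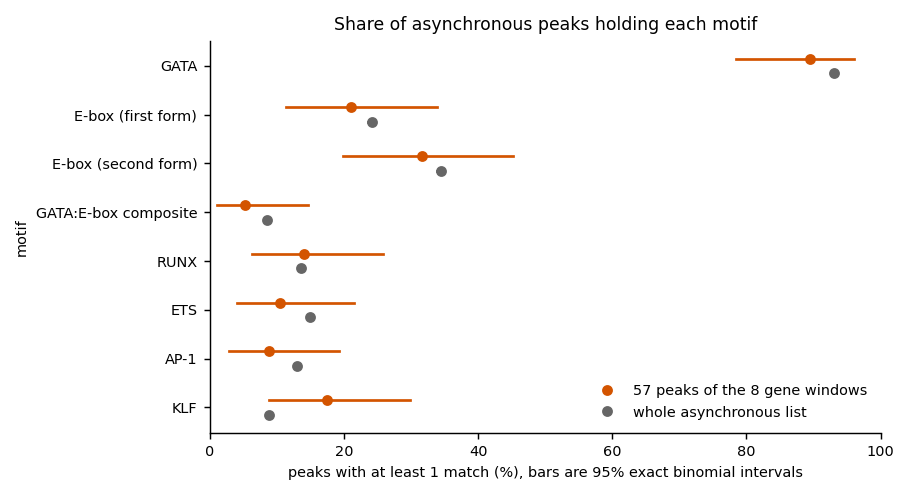
For each motif string the share of asynchronous peaks with at least 1 match (%) is plotted. Orange points are the 57 peaks of the 8 gene windows and grey points the whole asynchronous list, both with 95% exact binomial intervals as bars. The first E-box form is CAGCTG and the second CAGATG. The orange intervals are wide, and all but that of KLF span the grey point, which for KLF is at the lower end.

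The motifs of the 6 bookmarked peaks, which the rule for choosing the genes did not use, were set beside those of the other 51. CAGCTG was present in 5 of them, all but the LYL1 promoter peak, and in 7 of the 51 asynchronous-only peaks. In the whole list CAGCTG was held by 36.8% of bookmarked and 23.4% of asynchronous-only peaks, whose median widths were 674 and 367 bp. In the 200 bp around the midpoint, CAGCTG was found in 4 of the 57 peaks. These were the bookmarked LMO2 and nearer CBFA2T3 peaks, and asynchronous-only peaks at the CBFA2T3 start site and in the TCF3 window. In the bookmarked TAL1, NFIX and farther CBFA2T3 peaks every CAGCTG lay farther from the midpoint. The part of width in the E-box counts was not tested. Of the 12 peaks of these genes with both CAGCTG and a GATA match, 5 were bookmarked, beside 8.15% of such peaks in the whole list. These 5 are the same bookmarked peaks as above. All but the NFIX peak (660 bp) were in the widest decile, of which 24.6% were bookmarked in the whole list. A composite was found in 2 of the 6 (LYL1 in NFIX, and LMO2) and in 1 of the 51, beside 16.1% of bookmarked and 8.15% of asynchronous-only peaks in the whole list. RUNX, ETS and AP-1 strings were in none of the 6 asynchronous intervals (exact interval up to 45.9% for each) and in 8, 6 and 5 of the 51. In the whole list these strings were more frequent in bookmarked than in asynchronous-only peaks, at 20.4% and 13.2% for RUNX, 23.4% and 14.4% for ETS, and 19.2% and 12.7% for AP-1. The GC content of the 6 was 64.9% (TAL1), 75.6% and 61.2% (LYL1), 46.1% (LMO2), and 64.5% and 59.6% (CBFA2T3). The median was 62.8%, beside 44.3% for all bookmarked peaks, and LMO2 alone was near the list. The 51 asynchronous-only peaks had a median of 49.2%, beside 44.1% for such peaks of the whole list. In the same windows they had 44.4% to 66.5% (TAL1), 55.3% to 63.6% (LYL1), 34.4% to 56.4% (LMO2) and 52.2% to 69.9% (CBFA2T3).

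**Figure D4:**
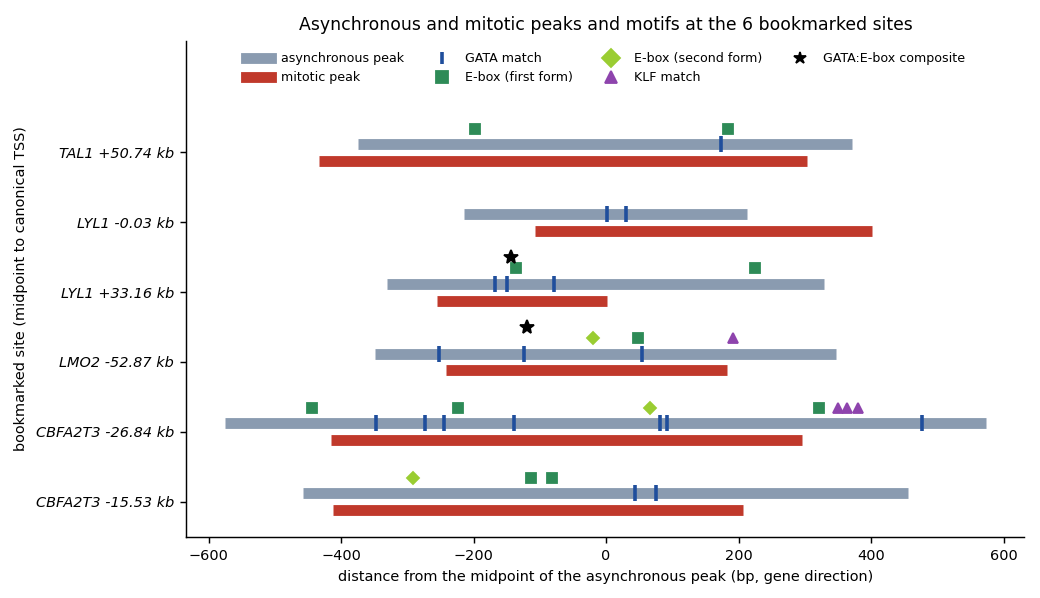
Each row is 1 of the 6 bookmarked sites, drawn to scale in bp around the midpoint of the asynchronous peak in the direction of the gene, with the asynchronous interval in grey and the mitotic one in red. Blue ticks are GATA matches, squares and diamonds the E-boxes CAGCTG and CAGATG, triangles KLF strings and stars GATA:E-box composites. Both composites and every GATA match except 1 at LMO2 and 1 at CBFA2T3 lie inside the mitotic interval.

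Promoters, counted as peak midpoints within 3 kb of a protein-coding start site of any gene, held 17 of the 57 peaks, or 29.8% (18.4% to 43.4%), beside 20.5% of the list. Of these 17 peaks 2 were bookmarked, at the LYL1 promoter and in NFIX, beside 4.33% of the promoter peaks of the whole list. Within 1 kb the share of promoter peaks was 17.5%, beside 10.2%. The median distance to the nearest protein-coding start site was 9690 bp, beside 14223 bp. The nearest start site was that of the gene itself for 43 of the 57 peaks and for 4 of the 6 bookmarked ones, the exceptions being the TAL1 peak (PDZK1IP1) and the second LYL1 peak (NFIX). At the edge of the windows, the farthest peak counted was 74589 bp from the CBFA2T3 gene body and nearest to CDT1, 396 bp wide and asynchronous only. The closest peak left out was 83674 bp from TCF12, 350 bp wide and also asynchronous only. Of the mitotic peaks left out, the closest was 103596 bp from CBFA2T3, nearest to PIEZO1.

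Another 18 genes of paralogues, inhibitors and cofactors of the complex were counted in the same way. They had 99 asynchronous peaks and 9 mitotic peaks in their windows, and 9.09% of the asynchronous peaks (4.24% to 16.6%) were bookmarked, a share near that of the 8 genes. A mitotic peak was found in the windows of 8 of the 18, beside 15.2% of protein-coding gene windows. Among gene windows with at least 4 asynchronous peaks the share was 29.2%, and not all of the 18 held that many. With windows of 25 kb there were 5 such genes. By nearest start site there were 4, among them ID4, whose window of 75 kb held no mitotic peak. The shares of all genes under these rules are not given here. Of the paralogues, TAL2 had 4 asynchronous and 1 mitotic peak, LMO1 had 2 and 1, and LMO3 and the LDB1 paralogue LDB2 had none. The third E protein gene, TCF4, had 19 asynchronous peaks and 2 mitotic peaks, where TCF3 and TCF12 had none of the latter. Whether these genes differ was not tested. Among the ID genes, whose products sequester E proteins, ID1 had 7 and 1, ID2 had 2 and 0, ID3 had 3 and 1, and ID4 none in its window. SSBP2, SSBP3 and SSBP4, which encode proteins that stabilise LDB1, had 8, 9 and 8 asynchronous peaks, with 1 mitotic peak at SSBP4. The ETO family members CBFA2T2 and RUNX1T1 had 8 and 3 asynchronous peaks and 1 mitotic peak each. The corepressor genes KDM1A, RCOR1, HDAC1 and HDAC2 had 6, 10, 6 and 4 asynchronous peaks and no mitotic peak. In the whole list 5.04% of asynchronous peaks were bookmarked, and with so few peaks a count of none is near that share. Only at TCF4 and RUNX1T1 did a mitotic peak overlap the gene body. For LMO1, ID1, ID3, SSBP4 and CBFA2T2, the mitotic peak in the window was nearest to a start site of another protein-coding gene.

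**Figure D5:**
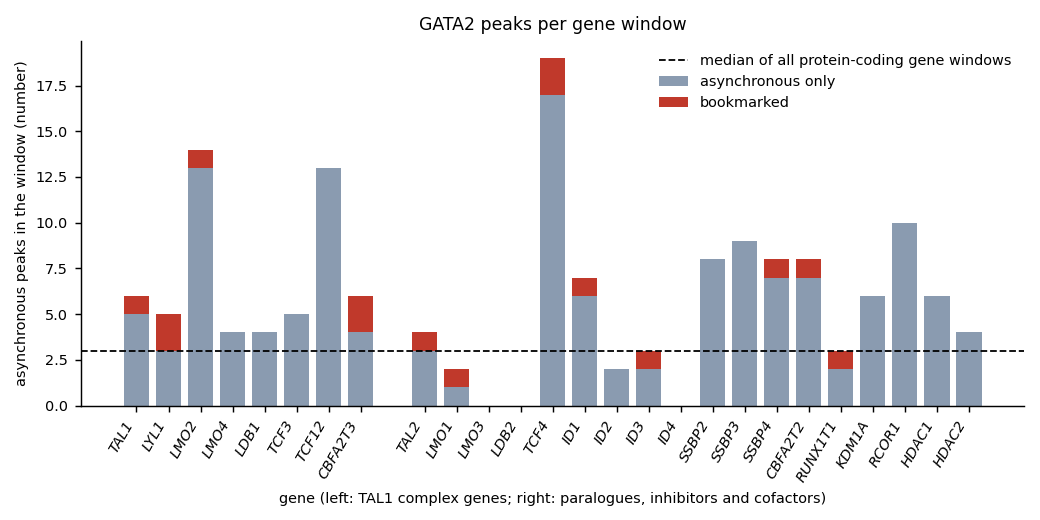
Bars give the number of asynchronous peaks in the window of each gene, with bookmarked peaks in red, for the 8 TAL1 complex genes on the left and the 18 related genes on the right. The dashed line is the median of all protein-coding gene windows (3 peaks). LMO2 (14) and TCF12 (13) lead on the left and TCF4 (19) on the right, and bookmarked peaks appear in 4 of the 8 and 8 of the 18 windows.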

How the data were processed

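Peak positions in bp were deposited by the authors as 1 list of chromosome, start and end per condition, with no score, so the values are positions and widths in no other unit. Per the methods and the submitters' processing notes, the authors aligned reads to hg38 with BWA 0.7.12, kept mapping qualities of at least 25, extended reads to 200 bp, called peaks with MACS2 2.1.0 and Genrich 0.6.1 and removed blacklisted peaks. How the calls of both programs were combined and how the inputs entered is not given in the sources used here. Read depth is not known from the lists, and a site without a peak may be under the limit of detection. The input libraries were not used here, and the sequence of 1 mitotic peak is not reported here.

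From these lists, peaks were assigned to genes by windows of 75 kb around GENCODE release 44 gene bodies (GRCh38, the build of the files) and coordinates were printed with the first base as 1. The genes named are the 8 genes, 18 related genes and the protein-coding genes in their windows or with the nearest start site. The genes and lists were chosen with earlier results of these data known. Motif strings were matched in the reference on both strands, without overlap between matches of a motif. The overlap and motif steps were tested on simulated data. Alternatives changed the window, the assignment, the overlap rule, the motif interval and spacing, the promoter distance and the genes included. Tables were handled with pandas 2.3.3 and numpy 2.4.6 under Python 3.11.15. The reference was read with pysam 0.24.0, exact intervals came from scipy 1.17.1, and figures were drawn with matplotlib 3.10.9.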

Additional observations from a re-analysis of the deposited data

How the results depend on the processing

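With 1 library per condition no value had a replicate spread, and read depth, which sets how many peaks can be called, is not known from the lists. No paired analysis was possible because each condition had a single library. The window decided how many peaks were counted. With 25 kb on each side, 37 asynchronous and 2 mitotic peaks were counted and 2 genes had a mitotic peak, and with the gene body only 19 asynchronous peaks, 1 mitotic peak and 1 gene. The share of bookmarked peaks was then 5.41% and 5.26%, near the 5.04% of the whole list but inside the interval of the main value (3.96% to 21.5%). By nearest start site there were 55 asynchronous and 6 mitotic peaks at 4 genes, but 2 of these mitotic peaks were at LMO4, beyond its window, and the TAL1 and NFIX peaks were not among them. With a reciprocal overlap of 50% the share was 8.77%, with the NFIX peak lost, beside 2.02% in the whole list. Leaving out 1 gene at a time gave 7.69% (without LYL1) to 13.6% (without TCF12) and median widths of 396 to 453.5 bp. With 7 to 9 bases allowed in the composite its share rose to 21.1%, beside 23.4% in the whole list, and with promoters limited to 1 kb the promoter share was 17.5%, beside 10.2%. Of the 18 related genes, 5 had a mitotic peak within 25 kb. By nearest start site 4 had one, among them ID4, whose window of 75 kb held none. For windows other than 75 kb and for nearest start sites, the share of all genes with a mitotic peak is not given here.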

Other observations

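Some GATA2 peaks that no window held had one of these genes as the nearest. LMO4 was nearest to 16 asynchronous and 2 mitotic peaks, while its window held 4 and 0. The mitotic ones lay 148447 and 141671 bp from the nearest LMO4 start site, on either side of the gene, and were 353 and 202 bp wide. ID4, whose window held no peak, was nearest to 4 asynchronous peaks and 1 mitotic peak, and ID2 was nearest to 12 asynchronous peaks with 2 in its window. TCF4 was nearest to 33 asynchronous and 3 mitotic peaks. Which genes such distant peaks serve was not tested.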
